A study of Mus musculus with 32 samples.

Results

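The 9 genes described here encode the proteins by which a cell detects double-stranded RNA, together with the adaptor and the enzymes that pass on or limit that signal. They are Ddx58 (RIG-I, also named Rigi), Ifih1 (MDA5), Dhx58 (LGP2), Mavs, Eif2ak2 (PKR), Zbp1, Adar, Tlr3 and Trim25. They were looked up by symbol from a list of names, and all 9 were found among the 21829 mouse genes of the table and passed the filter on low counts. EL08-1D2 is a stromal line of mouse origin, and its RNA was counted by unique molecular identifiers (UMIs), short tags that let copies of the same cDNA be merged into a single count. The study asked what azacitidine does to stromal cells, and compared 16 libraries with azacitidine and 16 libraries without it. Azacitidine is a cytidine analogue that is built into nucleic acids, traps DNA methyltransferases and so lowers DNA methylation. Both groups are the same line, no genetic change is named in the labels, and dose and duration are not given there. All values come from 1 cell line. Whether libraries came from separate cultures is not said in the labels, and p-values then reflect only how far these libraries scatter, which may be technical. In such bulk RNA a smaller share of expressing cells and less RNA per cell cannot be told apart. Each group has n = 16 libraries unless another n is given.

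Double-stranded RNA is rare in healthy cytoplasm and is taken by the cell as a sign of virus. RIG-I and MDA5 are cytoplasmic helicases that bind it and assemble the mitochondrial adaptor MAVS into filaments, which leads to interferon; LGP2 lacks the signalling domains of the other helicases and tunes them, and the ubiquitin ligase TRIM25 is a cofactor of RIG-I. TLR3 detects double-stranded RNA in endosomes, and PKR halts translation when it binds double-stranded RNA. ZBP1 binds left-handed (Z-form) nucleic acid and can start necroptosis. ADAR converts adenosine to inosine in double-stranded RNA, which keeps the cell's own RNA from being sensed. Drugs that lower DNA methylation are known for waking silent repeats whose transcripts can pair into double-stranded RNA, a state called viral mimicry. Many of these genes are themselves induced by interferon.

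Libraries with azacitidine held 1226861 to 5039721 UMIs of mouse genes, and libraries without it 818619 to 3210801. Libraries resembled others of their own run of 4 replicate numbers (1 to 4, 5 to 8, 9 to 12, 13 to 16): with group means subtracted, pairs of libraries with azacitidine had a mean r over genes of 0.34 inside a run and -0.16 across runs, and pairs without it 0.08 and -0.10. The labels do not say what a number stands for, and values within runs are given below. In addition 5 libraries, numbers 1, 2 and 4 with and numbers 1 and 2 without azacitidine, lay apart on the first principal component of these deviations, and results are also given without them. Of 9 stromal markers all had UMIs, although Thy1 had 26 with and 0 without azacitidine; 8 were tested, of which Cd44 rose and Col1a1, Col1a2 and Col3a1 fell, and the 9 summed to between 6352 and 10640 CPM with and between 9166 and 12280 CPM without azacitidine (CPM, counts per 1000000 at library sizes corrected with TMM factors). The defining markers Ptprc and Adgre1 (blood, macrophages), Pecam1 and Cdh5 (endothelium) and Epcam and Cdh1 (epithelium) had between 0 and 10 UMIs in either group. Other macrophage and blood markers were higher, with 161 and 143 UMIs for Itgam with and without azacitidine, 45 and 26 for Csf1r, and 12 and 14 for Lyz2. In the marker lists of those other cells, Cd68 and Krt19 were the tested genes and both rose (log2 fold change 1.00 and 2.37, edgeR, adjusted p = 3.04e-05 and 1.3e-05). The 6 macrophage and blood markers in the table summed to between 12.7 and 33.2 CPM with and between 8.94 and 23.3 CPM without azacitidine, the 3 endothelial ones to between 0 and 2.97 with and between 0 and 1.05 without, the 4 epithelial ones to between 3.91 and 18.8 with and between 0 and 7.70 without, and their part in the results below was not tested.

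With azacitidine, 6 of the 9 genes rose and 0 fell: Dhx58, Zbp1, Ifih1, Ddx58, Adar and Trim25 (quasi-likelihood test of edgeR, p-values adjusted after Benjamini and Hochberg over 9344 genes tested, threshold 0.05). Eif2ak2 and Tlr3 had positive fold changes that did not pass, and Mavs, the adaptor, was close to the same level in both groups. Over all genes tested, 3.65% were called as increased. The median log2 fold change was 0.61 among the 9 genes and 0.00 among all genes tested. None of the 9 had an unadjusted p under 0.05 for a decrease. DESeq2, limma-voom, DESeq2 size factors, no filter on low counts, spike-in scaling, the replicate number as a block and a run term each called the same 6, against 3.82%, 3.69%, 3.69%, 3.29%, 3.79%, 5.54% and 6.03% of all genes. Leaving out single libraries gave 6 to 7 of the 9, against 3.33% to 3.97% of all genes. Leaving out the 5 libraries that lay apart, or numbers 1 to 4, gave 5, against 3.96% and 3.78%. Without those 5 libraries Tlr3 fell below the filter and was not tested. Thinning every library to the smallest gave 3 of the 6 that still passed the filter, against 2.38%. When libraries of a run and group were summed, so that 4 sums stood against 4, edgeR called 0 of the 9 (7 had an unadjusted p under 0.05, all increases), against 0.855% of all genes, and with a term for the run it called Ifih1 and Adar, against 2.56% of all genes, while Dhx58, Ddx58, Trim25 and Zbp1 had adjusted p = 0.0806, 0.0902, 0.124 and 0.298.

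**Figure D1:**
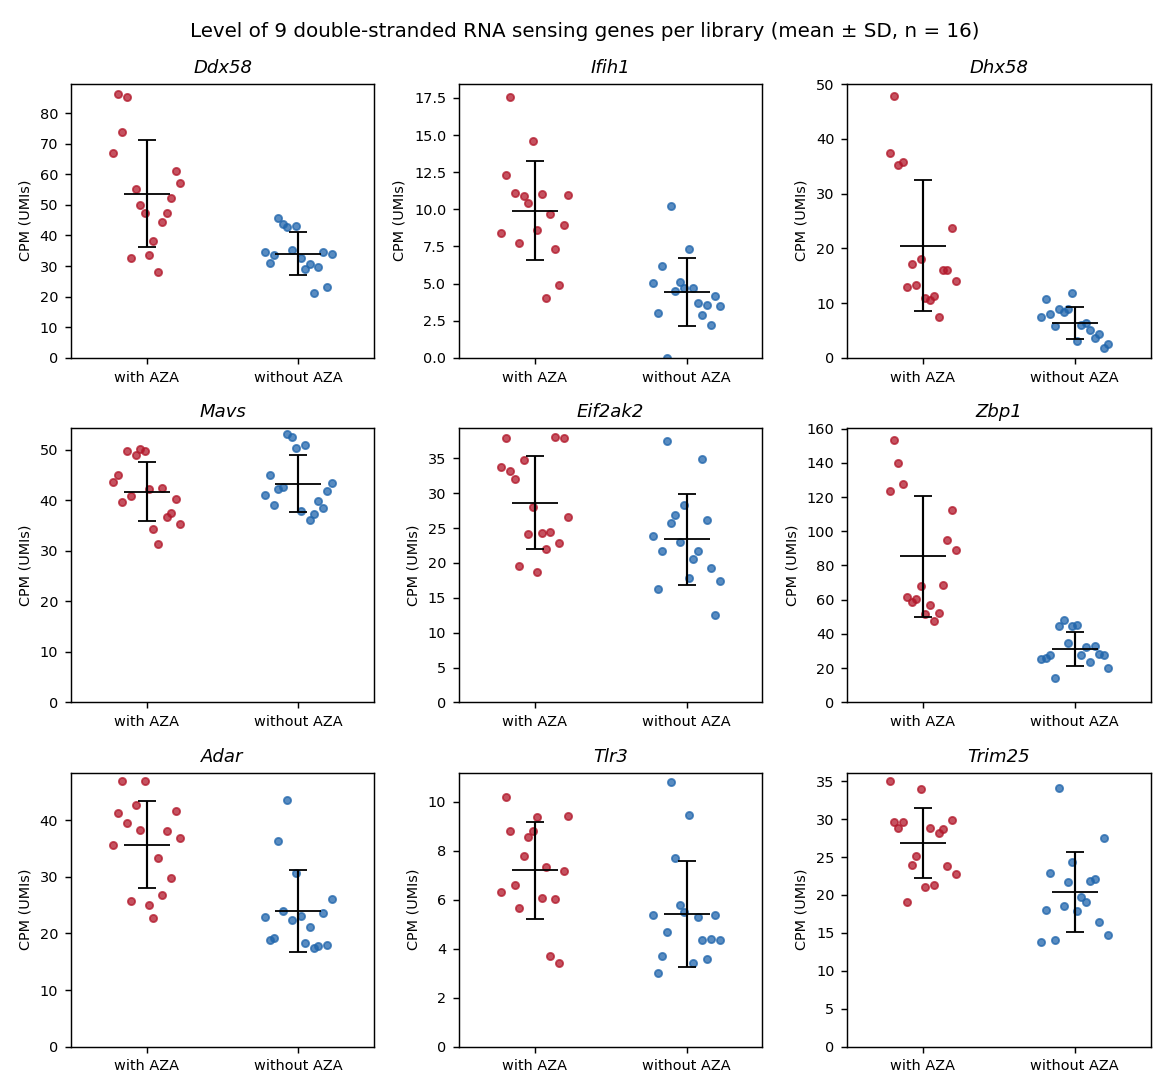
Level in CPM (linear axes from 0) of the 9 genes in the 16 libraries with (red) and the 16 without (blue) azacitidine. Each point is a library, placed by replicate number, with the group mean as a bar and 1 SD as whiskers; Zbp1 overlaps in 1 library per group, while the groups overlap over most of their range for Mavs.

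Ddx58 encodes RIG-I, which recognises short double-stranded RNA with an uncapped end. The gene (ENSMUSG00000040296) lies on chromosome 4, 40203773 to 40239828, mm10. It had between 28.0 and 86.4 CPM with azacitidine, median 51.0, against between 21.1 and 45.7 without, median 33.7. The 4 highest libraries with azacitidine were numbers 1 to 4, and 11 of the 16 lay above every library without the drug, so the groups overlapped in their lower part. The log2 fold change was 0.69 (SE 0.14, edgeR, adjusted p = 0.000634), and 0.51 (adjusted p = 0.0102) without the 5 libraries that lay apart.

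Ifih1 encodes MDA5, the sensor of long double-stranded RNA (ENSMUSG00000026896, chromosome 2, 62595798 to 62646255). It was counted sparsely, with 6 to 52 UMIs per library with azacitidine and 0 to 17 without. That corresponds to between 4.0 and 17.6 CPM with the drug, median 10.0, against between 0 and 10.2 CPM without it, median 4.33. Of the 16 libraries with azacitidine 8 lay above every library without it. The log2 fold change was 1.15 (SE 0.20, edgeR, adjusted p = 9.1e-05), and 1.10 (adjusted p = 0.00088) without the 5 libraries.

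Dhx58, which encodes the modulator LGP2 (ENSMUSG00000017830, chromosome 11, 100694884 to 100704271), had the largest fold change of the 9 genes. It lay between 7.42 and 47.8 CPM with azacitidine, median 16.1, against between 1.79 and 11.8 CPM without, median 6.18. Counts without the drug were low, with 3 to 25 UMIs per library, against 10 to 202 with it. Libraries with the drug fell into a high set, numbers 1 to 4 at 35.2 CPM or more, and the other 12 at 23.7 CPM or less. The log2 fold change was 1.70 (SE 0.26, edgeR, adjusted p = 1.53e-05), a 3.25-fold increase, and 1.40 without the 5 libraries (adjusted p = 5.37e-05). The annotation places the antisense gene Dhx58os over exons of Dhx58, and whether the counting kept strand is not given in the sources used here, so reads of the shared part cannot be assigned with certainty. Dhx58os, named after its values were seen, went the other way: it fell to 10.3 ± 3.3 CPM with azacitidine, against 15.7 ± 3.4 without (mean ± SD; log2 fold change -0.57, SE 0.13, edgeR, adjusted p = 0.00454).

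The promoters of these sensors were set beside the values because interferon acts on many such genes through the interferon-stimulated response element. RefSeq windows (build GRCm38.p6, the same assembly as mm10) of 300 bases, 250 before and 50 after the annotated start, were found by symbol for 7 of the 9 genes, all but Dhx58 and Zbp1. In the sequences below, read in the direction of the gene, capitals mark matches on either strand to the core of that element, taken as GAAA, any 2 bases and GAAA again, or to the gamma-activated site, TTCNNNGAA; these matches do not overlap. The 3 with the core are shown, followed by Mavs as the gene without a match that was furthest from a call.

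Ddx58, chr4:40239776-40240075, minus strand: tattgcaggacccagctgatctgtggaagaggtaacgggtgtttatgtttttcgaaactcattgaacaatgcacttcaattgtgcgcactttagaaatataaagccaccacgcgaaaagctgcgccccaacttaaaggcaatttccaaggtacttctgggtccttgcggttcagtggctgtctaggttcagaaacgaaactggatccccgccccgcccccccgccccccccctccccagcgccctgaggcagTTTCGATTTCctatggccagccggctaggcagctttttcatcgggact
Ifih1, chr2:62646206-62646505, minus strand: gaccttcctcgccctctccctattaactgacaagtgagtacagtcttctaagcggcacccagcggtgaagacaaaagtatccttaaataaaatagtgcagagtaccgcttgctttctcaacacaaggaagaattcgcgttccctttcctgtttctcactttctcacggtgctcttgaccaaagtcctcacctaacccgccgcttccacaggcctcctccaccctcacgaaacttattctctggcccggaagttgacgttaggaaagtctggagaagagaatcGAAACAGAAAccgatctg
Eif2ak2, chr17:78882523-78882822, minus strand: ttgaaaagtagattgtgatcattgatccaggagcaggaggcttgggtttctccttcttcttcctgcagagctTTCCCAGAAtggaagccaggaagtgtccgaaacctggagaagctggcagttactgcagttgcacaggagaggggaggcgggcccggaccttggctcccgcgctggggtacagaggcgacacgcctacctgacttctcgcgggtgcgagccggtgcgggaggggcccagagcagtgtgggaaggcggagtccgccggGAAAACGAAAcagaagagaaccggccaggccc
Mavs, chr2:131233813-131234112, plus strand: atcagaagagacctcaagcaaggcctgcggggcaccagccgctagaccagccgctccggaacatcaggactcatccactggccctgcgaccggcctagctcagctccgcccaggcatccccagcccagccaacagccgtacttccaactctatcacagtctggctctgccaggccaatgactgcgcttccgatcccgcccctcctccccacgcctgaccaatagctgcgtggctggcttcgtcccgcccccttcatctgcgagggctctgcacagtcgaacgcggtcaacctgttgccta

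The response element core was in the windows of Ddx58, Ifih1 and Eif2ak2, and in 3.44% of all 32851 promoter windows. Counted by gene, 3.99% of all 27025 genes with windows had it. In each of the 3 genes it began within the 50 bases after the annotated start, at base 253, 283 and 269 of the window. The gamma-activated site was found in Eif2ak2 and in 1 of 3 windows of Adar, against 8.3% of all windows and 9.55% of all genes with windows. Neither string was found in the windows of Mavs, Tlr3 or Trim25, nor the response element core in those of Adar. Thus Ddx58 and Ifih1 have the core with this spacing and rose, and Eif2ak2 has it and was not called. Adar and Trim25 have no exact match with this spacing in these windows and rose. Inexact matches and other spacings were not searched, so a related element in any of these windows could have been missed. For example, GAAA, 1 base and GAAA occurs in the Ddx58 window and in 1 window of Adar. The windows hold 15 CG dinucleotides in Ddx58, 14 in Ifih1, 17 in Eif2ak2, 19 in Mavs, 18 in Trim25, 10 in Tlr3 and 6, 34 and 12 in the 3 of Adar, against a median of 7 over all windows, and no methylation was measured here.

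Zbp1, the sensor of Z-form nucleic acid (ENSMUSG00000027514, chromosome 2, 173206612 to 173218923), separated the groups most clearly. It had between 47.3 and 153 CPM with azacitidine, median 68.3, against between 14.1 and 48.0 CPM without, median 28.0. All libraries with the drug but 1 lay above every library without it. The exception was number 11 with azacitidine, at 47.3 CPM, just under number 6 without, at 48.0 CPM. The log2 fold change was 1.47 (SE 0.18, edgeR, adjusted p = 4.75e-07), a 2.76-fold increase, and 1.21 without the 5 libraries (adjusted p = 4.47e-05).

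Adar, the editor that marks the cell's own double-stranded RNA (ENSMUSG00000027951, chromosome 3, 89715022 to 89753446), also rose. It lay between 22.7 and 46.9 CPM with azacitidine, median 37.4, against between 17.5 and 43.6 CPM without, median 22.6. The ranges overlapped widely. Number 6 (43.6 CPM), number 4 (36.3 CPM) and number 8 (30.7 CPM) were the highest without the drug, while 8 of the 16 libraries without it lay below the lowest with it. The log2 fold change was 0.61 (SE 0.12, edgeR, adjusted p = 0.000698), and 0.56 without the 5 libraries (adjusted p = 0.00761). The table counts whole genes, so the long interferon-inducible form of ADAR and the short constitutive one cannot be told apart.

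Trim25, the ubiquitin ligase that assists RIG-I (ENSMUSG00000000275, chromosome 11, 88999376 to 89020293), had the smallest called increase. It lay between 19.1 and 35.1 CPM with azacitidine, median 28.5, against between 13.8 and 34.2 CPM without, median 19.4. Number 5 was the lowest library with and the highest library without the drug, and only 1 library with azacitidine lay above every library without it. The log2 fold change was 0.40 (SE 0.11, edgeR, adjusted p = 0.0141). The call rested on the libraries numbered 1 to 4: the log2 fold change was 0.28 (edgeR, adjusted p = 0.139) without the 5 libraries that lay apart and 0.24 (adjusted p = 0.236) without numbers 1 to 4.

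Eif2ak2 and Tlr3 did not pass the test. Eif2ak2, which encodes PKR (ENSMUSG00000024079, chromosome 17, 78852564 to 78882573), had between 18.8 and 38.1 CPM with azacitidine, median 27.4, against between 12.6 and 37.5 CPM without, median 22.4. Its log2 fold change was 0.33 (SE 0.12, edgeR, adjusted p = 0.122), with a 95% interval from 0.12 to 0.61 by limma-voom, not adjusted over genes. Tlr3, the endosomal sensor (ENSMUSG00000031639, chromosome 8, 45395665 to 45411080), was sparse, with 5 to 43 UMIs per library with azacitidine and 4 to 18 without. It lay between 3.41 and 10.2 CPM with the drug, median 7.24, against between 3.01 and 10.8 CPM without it, median 4.99. Its log2 fold change was 0.45 (SE 0.165, edgeR, adjusted p = 0.113; 95% interval from 0.14 to 0.79 by limma-voom). The highest library without azacitidine, number 5, decided that call: without this library the log2 fold change was 0.56 (edgeR, adjusted p = 0.0267).

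Mavs, the adaptor on which RIG-I and MDA5 converge (ENSMUSG00000037523, chromosome 2, 131234063 to 131248025), gave the narrowest result. It had between 31.3 and 50.1 CPM with azacitidine, median 41.5, against between 36.0 and 53.2 CPM without, median 42.0. No library of either group lay outside the other group's range at the upper end with the drug or at the lower end without it. Means were 41.7 ± 5.9 CPM with and 43.2 ± 5.6 CPM without azacitidine (SD), and the log2 fold change was -0.04 (SE 0.07, edgeR, adjusted p = 0.989). Scaling by spike-in RNA, which raised the median of all genes by 0.31, turned the sign of Mavs to 0.28 (edgeR, adjusted p = 0.306), still near that median. The 95% interval from limma-voom, -0.18 to 0.11, leaves out an increase of the size seen in any of the 6 called genes.

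The size of the increase depended on the run of replicate numbers. In numbers 1 to 4 edgeR called 7 of the 9 genes as increased, against 4.68% of all genes, and in numbers 13 to 16 it called Ddx58, Dhx58, Zbp1 and Adar, against 1.9% of all genes. In numbers 5 to 8 and in numbers 9 to 12 it called Zbp1 alone of the 9, against 2.64% and 0.92% of all genes. Log2 fold changes were above 0 in each of the 4 runs for 7 of the 9 genes, all but Mavs and Eif2ak2, and for 11.5% of all genes. Whether the effect differed between runs was tested as an interaction term, which was passed by Zbp1, Dhx58 and Ddx58 (edgeR, adjusted p = 7.9e-08, 0.000342 and 0.00894), against 3.02% of all genes. The runs were already known from an earlier analysis of these data to differ in the size of the interferon response. The interaction test describes that known difference in these genes and is no independent evidence for it. Without the 5 libraries that lay apart, numbers 1 to 4 hold 1 library with azacitidine and 2 without, and the lone library is assumed to vary like the others. In that fit the interaction was passed by Zbp1 and Dhx58 (adjusted p = 3.88e-06 and 0.00246), against 2.62% of all genes, and not by Ddx58 (edgeR, adjusted p = 0.148).

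**Figure D2:**
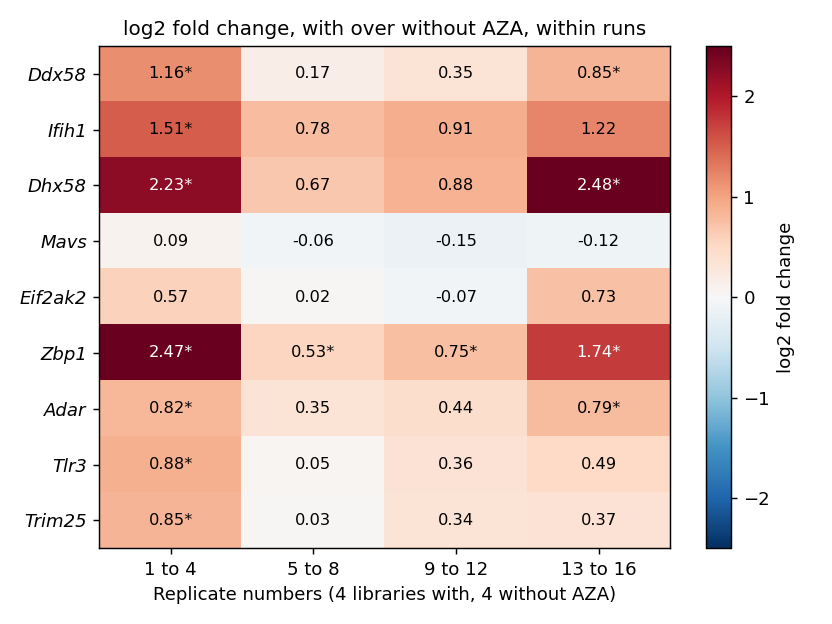
Log2 fold change, with over without azacitidine, of the 9 genes (rows) within each run of 4 replicate numbers (columns), from an edgeR fit with a term per run. Asterisks mark an adjusted p under 0.05 within the run; each gene has its highest value in numbers 1 to 4 or 13 to 16, and Mavs stays between -0.15 and 0.09.

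Zbp1 averaged 136 ± 13, 62.1 ± 4.0, 52.0 ± 3.9 and 91.3 ± 17.9 CPM in the 4 runs with azacitidine, against 23.3 ± 6.3, 42.9 ± 5.8, 32.1 ± 9.5 and 27.1 ± 5.3 CPM in those without (SD, n = 4 each). Its log2 fold change was thus 2.47 in numbers 1 to 4 and 0.53 in numbers 5 to 8, where the level without the drug was also the highest of the 4 runs. Dhx58 averaged 39.0 ± 5.9, 15.4 ± 2.7, 10.1 ± 1.8 and 17.5 ± 4.2 CPM with azacitidine, against 8.01 ± 2.03, 9.52 ± 1.55, 5.15 ± 1.43 and 3.09 ± 1.14 CPM without. Its log2 fold change was 2.48 in numbers 13 to 16 and 2.23 in numbers 1 to 4. In numbers 13 to 16 the level with the drug was lower, and the level without it was the lowest of the runs. That lowest level rests on 6, 8, 3 and 3 UMIs in the 4 libraries, so the 2.48 is imprecise. In Zbp1 and Dhx58, and in no other of the 9 genes, the 4 libraries with azacitidine lay above the 4 without it in every run, which held for 0.621% of all genes tested. Ddx58 had a log2 fold change of 1.16, 0.17, 0.35 and 0.85 in the 4 runs, and Ifih1, whose interaction test did not pass (edgeR, adjusted p = 0.756), had 1.51, 0.78, 0.91 and 1.22. Adar had 0.82, 0.35, 0.44 and 0.79, Trim25 had 0.85, 0.03, 0.34 and 0.37, and Tlr3 had 0.88, 0.05, 0.37 and 0.49. Eif2ak2 had 0.57, 0.02, -0.07 and 0.73; none of these was called, and its interaction test did not pass (edgeR, adjusted p = 0.278).

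**Figure D3:**
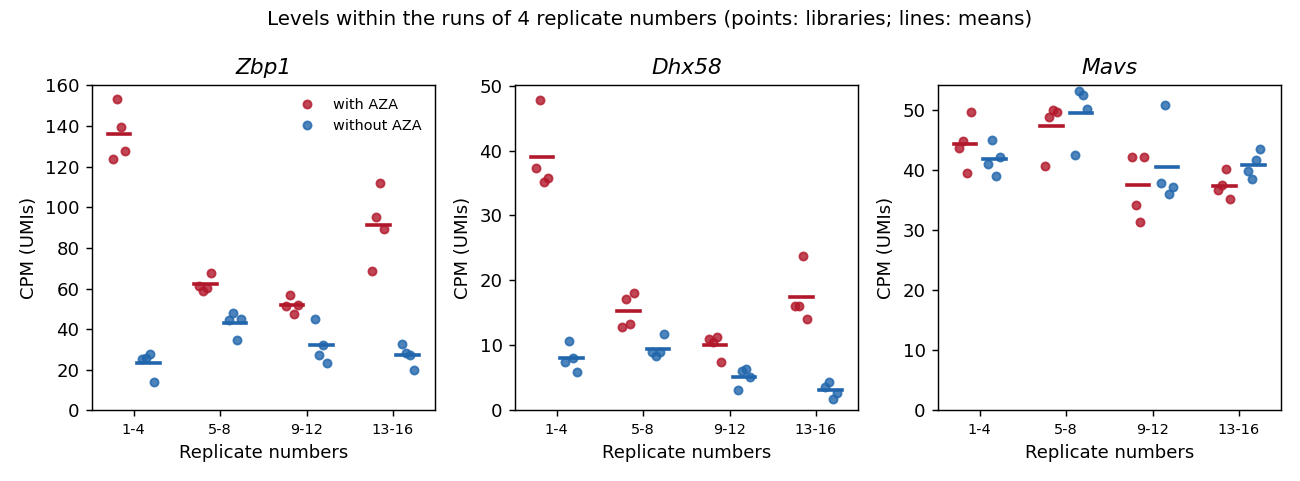
CPM of Zbp1, Dhx58 and Mavs in each library (points; lines are means of 4 libraries) by run of replicate numbers, with (red) and without (blue) azacitidine, on linear axes from 0. For Zbp1 and Dhx58 the red points lie above the blue ones in each run with gaps of different size, while for Mavs both colours overlap in each run.

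Most partner genes of the sensors were not called. Of 113 genes in 7 lists, 96 were in the table and 78 were tested, of which 4 rose and 1 fell, with a median log2 fold change of 0.03. Over all genes tested 3.65% rose and 2% fell, so these counts are near the background. The 4 that rose were Irf7, Mlkl, Ripk3 and Ifi204, and the 1 that fell was Pcbp2. With sums of runs and no run term edgeR called 0 of these genes, and adjusted p-values of the 5 then lay between 0.0734 and 0.442.

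Downstream of MAVS and TLR3, 1 of 18 tested genes rose and 0 fell (none with an unadjusted p under 0.05 for a decrease; DESeq2 and limma-voom also 1 and 0). Irf7, the interferon-inducible transcription factor that drives a second wave of interferon genes, lay between 16.4 and 111 CPM with azacitidine, median 48.7, against between 12.6 and 42.9 CPM without, median 16.6. Its log2 fold change was 1.49 (SE 0.24, edgeR, adjusted p = 4.86e-05), with 2.60, 0.58, 0.60 and 1.63 in the 4 runs. Irf7 shares exon sequence with the opposite-strand gene Phrf1, which was not called (log2 fold change -0.14, edgeR, adjusted p = 0.285). The constitutive factor Irf3 averaged 31.4 ± 9.2 CPM with and 27.6 ± 5.6 CPM without azacitidine (edgeR, adjusted p = 0.392), and its kinase Tbk1 35.2 ± 5.9 and 31.0 ± 6.8 CPM (adjusted p = 0.342). Of interferon genes themselves, Ifnb1 and Ifne were in the table, and Ifnb1 had 2 UMIs in the libraries with and 0 in those without azacitidine, too few to compare.

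Of the 5 genes listed for ZBP1-driven necroptosis 2 rose and 0 fell (none with an unadjusted p under 0.05 for a decrease; DESeq2 and limma-voom also gave 2 and 0). Ripk3, the kinase that ZBP1 engages, lay between 20.0 and 39.2 CPM with azacitidine, median 26.3, against between 14.9 and 24.9 CPM without, median 21.0 (log2 fold change 0.43, SE 0.10, edgeR, adjusted p = 0.00331). Mlkl, which forms the pore that bursts the cell, lay between 64.1 and 96.3 CPM with azacitidine, median 80.9, against between 50.8 and 74.7 CPM without, median 60.5 (log2 fold change 0.35, SE 0.07, edgeR, adjusted p = 0.000322). Over the 4 runs Ripk3 had log2 fold changes of 0.02, 0.83, 0.51 and 0.33, and Mlkl 0.31, 0.30, 0.28 and 0.51, and neither passed the interaction test (edgeR, adjusted p = 0.125 and 0.694). Casp8, the protease that restrains necroptosis, was not called (log2 fold change 0.15, edgeR, adjusted p = 0.418).

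Around PKR, 0 of 18 tested genes of the eIF2 kinases and their response were called by edgeR, with 1 increase and 1 decrease at an unadjusted p under 0.05, while DESeq2 and limma-voom called 1 decrease each. The genes with such a p were Eif2s1, the subunit of eIF2 that PKR phosphorylates (log2 fold change 0.20, edgeR, adjusted p = 0.0652), and the amino-acid sensing kinase gene Eif2ak4 (-0.33, adjusted p = 0.0562). Of 15 other genes for double-stranded RNA binding proteins edgeR, DESeq2 and limma-voom called 0, with 4 decreases and 0 increases at an unadjusted p under 0.05. These 4 were Zfr, Prkra, Dhx9 and Ilf2, with log2 fold changes between -0.28 and -0.10 and adjusted p-values between 0.0935 and 0.212. Of 14 tested modifiers of RIG-I and MDA5 signalling 1 fell and 0 rose, with 1 increase at an unadjusted p under 0.05 and 0 called as increased by DESeq2 or limma-voom. The 1 was Pcbp2, an RNA-binding protein that promotes the breakdown of MAVS, at 265.8 ± 27.6 CPM with and 303.3 ± 16.6 CPM without azacitidine (log2 fold change -0.19, SE 0.04, edgeR, adjusted p = 0.0046). Scaling by spike-in RNA turned the sign of Pcbp2 to 0.12 (edgeR, adjusted p = 0.615), and reads could be shared with the opposite-strand gene Map3k12, which overlaps its exons. Among 8 tested genes for the sensing of DNA and single-stranded RNA, 1 rose and 0 fell (none with an unadjusted p under 0.05 for a decrease; DESeq2 and limma-voom also 1 and 0). That gene was Ifi204, an interferon-inducible DNA sensor of a family of near copies, at 46.8 ± 7.6 CPM with and 30.4 ± 5.4 CPM without azacitidine (log2 fold change 0.63, SE 0.09, edgeR, adjusted p = 2.31e-06). The DNA pathway adaptor Tmem173 (STING) averaged 65.9 ± 12.8 CPM with and 65.0 ± 9.2 CPM without the drug (edgeR, adjusted p = 0.931).

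**Figure D4:**
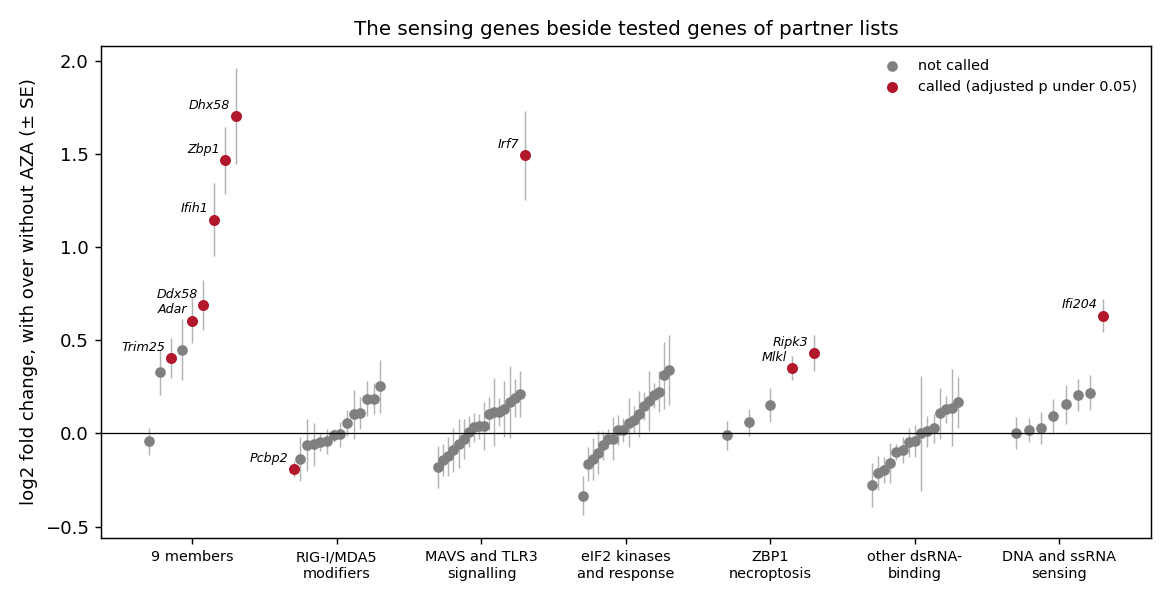
Log2 fold change, with over without azacitidine, of the 9 sensing genes and of the tested genes of 6 partner lists, with SE as whiskers; red points passed an adjusted p under 0.05 in edgeR. Of the 9 genes 6 are red, with Dhx58 highest at 1.70, and of the 78 partner genes 5 are red, with Irf7 highest at 1.49 and Pcbp2 below 0.

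The genes whose levels followed the 9 most closely, among 9335 ranked, were Tor3a, Ifit3, Lgals3bp, Irgm1 and Usp18. Likeness was the Pearson correlation, over the 32 libraries and after subtraction of the group means, with the mean z-score of the 9 genes, which removes the average effect of azacitidine but not its differences between runs. It is a description only, since libraries of a run resemble each other. The values of r lay between 0.89 and 0.91, Spearman's rho between 0.85 and 0.87, and r between 0.86 and 0.90 when the 2 libraries farthest from the median were left out. Ifit3, Irgm1 and Usp18 are interferon-stimulated genes, and Ifit3, Lgals3bp, Irgm1 and Usp18 rose with azacitidine (log2 fold change 1.65, 0.83, 1.22 and 1.65, edgeR, adjusted p = 0.000459, 1.23e-05, 8.86e-06 and 8.68e-08). Tor3a did not pass (0.35, edgeR, adjusted p = 0.0636). Taken singly, Zbp1 was most like Oas1g (r = 0.91), Dhx58 like Lgals3bp (0.87), Ddx58 like Irgm1 (0.85), Adar like Ube2l6 (0.72), Tlr3 like Myd88 (0.71), Eif2ak2 like Tgtp2 (0.68) and Trim25 like H2-D1 (0.61). Mavs was most like Mpzl1 (0.73), which was not called (edgeR, adjusted p = 0.176). Ifih1 was most like Diablo (0.78), a value that fell to 0.49 without the 2 farthest libraries and so depends in part on them. Spearman's rho for this pair was 0.66, and r was 0.79 without the 5 libraries that lay apart.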

How the data were processed

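Per the labels' protocols, column-purified RNA for 16 libraries with and 16 without azacitidine was turned into barcoded cDNA with UMIs, then pooled and pre-amplified. Per the submitters' processing notes, STAR 2.4.0, bedtools 2.17.0 and the build mm10 were used; UMI collapsing, annotation and strand handling are not given in the sources used here. The deposited values are raw UMI counts per gene and library. The 68 spike-in rows (0.106% of UMIs) were kept out of library sizes and tests. Symbols came from GENCODE M21, for 21506 of 21829 genes.

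The main test was edgeR 4.0.16 (robust quasi-likelihood, TMM, default expression filter, no covariates, two-sided) on the 9344 genes that passed, with 98.8% of the counts. An SE is the size of the log2 fold change divided by the root of F, and for Mavs it may be too small. Alternatives were DESeq2 1.42.0, limma 3.58.1 (voom, source of the intervals), DESeq2 size factors, no filter, thinning to 818619 UMIs, a replicate block, a run term, sums of runs with a run term, spike-in scaling, and leaving out 5 libraries, numbers 1 to 4 or each library. Limma-voom and sums without a run term were added after the data were seen. R 4.3.3 and Python 3.11.15 were used.

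The 9 genes, the lists, the runs and the alternatives were chosen with earlier results of these data known. Named partners are up to 3 called genes per list and direction in order of p, the 5 genes most like the mean of the 9 and the 1 most like each (among genes with a mean of 5 CPM or more); others were named after their values were seen. No 2 libraries of a group agreed within sampling noise (lowest chi-square per degree of freedom 1.11 with and 1.13 without azacitidine).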

Additional observations from a re-analysis of the deposited data

Results flagged for a closer look

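In Zbp1, Dhx58 and Ddx58 the effect of azacitidine differed between the runs of 4 replicate numbers by a test of the difference itself (edgeR interaction test, adjusted p = 7.9e-08, 0.000342 and 0.00894). That the runs differ in the size of the interferon response was known from these data before the test. The log2 fold changes in numbers 1 to 4, 5 to 8, 9 to 12 and 13 to 16 were 2.47, 0.53, 0.75 and 1.74 for Zbp1, 2.23, 0.67, 0.88 and 2.48 for Dhx58, and 1.16, 0.17, 0.35 and 0.85 for Ddx58. All were above 0, and the 2.48 of Dhx58 rests on 3 to 8 UMIs per library without azacitidine. Without the 5 libraries that lay apart, Ddx58 did not pass (edgeR, adjusted p = 0.148), and Zbp1 and Dhx58 did, but that fit leaves numbers 1 to 4 with 1 library with azacitidine and 2 without, and assumes that the lone library varies like the others. The labels do not say what the replicate numbers stand for, so a culture, a day and a position on a plate cannot be told apart here.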

How the results depend on the processing

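Of the 9 genes 6 were called as increased; the number was 3 after thinning (Ifih1, Dhx58 and Tlr3 then fell below the expression filter, and Trim25 was not called), 2 with sums of runs and a run term, 0 with sums and no run term, and 6 to 7 when single libraries were left out. Every other alternative gave 5 or 6 (Tlr3 was not tested without the 5 libraries), and 0 were called as decreased under any. Of the partner genes 4 were called as increased. The number was 7 with the replicate block, 8 with a run term, and 6 without the 5 libraries or without numbers 1 to 4. It was 5 with no filter or with spike-in scaling, 3 with sums and a run term, and 0 with sums and no run term. It was 4 to 5 when single libraries were left out, and 4 under the other alternatives. The 1 decrease became 2 with DESeq2, limma-voom, the replicate block or without the 5 libraries, 3 without numbers 1 to 4, 4 with a run term, 0 with either kind of sums or spike-in scaling, and 1 to 2 when single libraries were left out. With sums the 9 genes kept their direction and nearly their size (Zbp1 1.39 and 1.45 with and without the run term, adjusted p = 0.298 and 0.092). Spike-in scaling raised the median of all genes by 0.31, turned Mavs to 0.28 (edgeR, adjusted p = 0.306) and Pcbp2 to 0.12, and called the same 6 genes. Over all genes 341 rose and 187 fell; these counts were 718 and 142 with no filter, 173 and 89 after thinning, 518 and 379 with the block, 563 and 430 with a run term, 314 and 86 with sums and a run term, 105 and 3 with sums alone, and 354 and 1 with spike-in scaling. Same-numbered libraries were alike only in part. Of their 16 pairs 12 correlated above 0.1 (lowest -0.29, median 0.18, highest 0.83), and 3 of 16 libraries were most like their own number. The replicate block called 6 of the 9 genes. The cause of these differences was not tested. Thinning leaves fewer UMIs per library, and sums leave fewer values per group. The lowest counts are those of Ifih1, Tlr3 and Dhx58, with 0 to 17, 4 to 18 and 3 to 25 UMIs per library without azacitidine.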

Other observations

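Ddx60, a helicase gene reported to assist RIG-I, was below the expression filter. It had 292 UMIs in the 16 libraries with and 55 in the 16 without azacitidine, at 6.37 ± 3.62 and 2.13 ± 0.91 CPM (SD), and without the filter its log2 fold change was 1.74 (edgeR, adjusted p = 1.33e-06). Of the other genes of its list that were not tested, Nlrx1 had 1 UMI with and 0 without azacitidine, and Rnf125 had 30 and 15. Among the sensors of other nucleic acids, Tlr7 had 1 and 0 UMIs, and Aim2 had 69 with and 35 without azacitidine (edgeR without the filter, adjusted p = 0.549).

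Within the groups the correlations among the 9 genes were uneven. After subtraction of group means, the 36 pairwise correlations over 32 libraries ran from -0.09 (Ifih1 and Eif2ak2) to 0.72 (Ddx58 and Dhx58), with a median of 0.32 and 33 above 0. These values carry the differences between runs, those in the effect of azacitidine included, and are descriptions only. Sampling noise at low counts, such as the 0 to 17 UMIs of Ifih1 per library without azacitidine, also lowers such correlations. Its part was not tested, so a value near 0 does not show that 2 genes vary separately. Ifih1 was close to 0 with Adar (-0.03) and Trim25 was close to 0 with Adar (-0.01), although all 3 genes rose with azacitidine.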
